A study of Homo sapiens with 8 samples.

Results

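The prostaglandin genes examined here were PTGS1, PTGS2, PTGES, PTGES2, PTGES3, PTGIS, PTGER2, PTGER4, PLA2G4A and HPGD, which together cover the release of arachidonic acid, its conversion to prostaglandins, 2 of the receptors for prostaglandin E2 and its breakdown. They were chosen by gene symbol, and all 10 were found among the 27945 genes of the table. The measurement was fastGRO-seq, a nuclear run-on in which engaged polymerases add labeled bases to the transcripts in progress before these are captured and sequenced, so that a count reports ongoing transcription. The cells were IMR90, primary human lung fibroblasts carrying ER:RAS, a fusion of the estrogen receptor with oncogenic H-RAS that 4-hydroxytamoxifen (4-OHT) switches on and that drives the cells into senescence. Of the 4 groups, each with 2 libraries, the first was control cells, labeled wild type, without senescence and without an shRNA. The others were senescent cells, for which the study's methods give 100 nM 4-OHT and harvest on day 6, that carried a control shRNA (shControl), an shRNA against METTL3 or an shRNA against METTL14. Because control cells had no shRNA, effects of senescence and of shRNA delivery cannot be told apart when senescent shControl cells are set against them. All libraries came from a single fibroblast strain, and the study describes its fastGRO-seq experiments as independent.

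Prostaglandins are short-lived lipid signals. Phospholipase A2 frees arachidonic acid from membranes, the cyclooxygenases PTGS1 and PTGS2 turn it into prostaglandin H2, and terminal synthases make the individual prostanoids from it, among them prostaglandin E2, which acts on cells through EP receptors and is inactivated by 15-hydroxyprostaglandin dehydrogenase. PTGS1 is known as the constitutive cyclooxygenase and PTGS2 as the form induced by growth factors, oncogenes and inflammatory signals, and PTGS2 is often counted with the secretory program of senescent fibroblasts. METTL3 and METTL14 form the core of the complex that writes N6-methyladenosine on RNA.

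The start regions of the 2 cyclooxygenase genes are shown because these genes carried the clearest differences. Each line gives the 250 bases before a RefSeq start site (RefSeq promoter table of GRCh38.p14), 5′ to 3′ on the gene's own strand, with matches to the motifs searched in capitals, and each was found exactly once in the hg19 genome. The first line is PTGS2 at chr1:186649556-186649805 on the minus strand, next to the start of the counted gene. The second is PTGS1 at chr9:125132562-125132811 on the plus strand, next to the start of the counted gene, and the third is another PTGS1 start at chr9:125137331-125137580, whose start site lies 4772 bases inside the counted span.
PTGS2: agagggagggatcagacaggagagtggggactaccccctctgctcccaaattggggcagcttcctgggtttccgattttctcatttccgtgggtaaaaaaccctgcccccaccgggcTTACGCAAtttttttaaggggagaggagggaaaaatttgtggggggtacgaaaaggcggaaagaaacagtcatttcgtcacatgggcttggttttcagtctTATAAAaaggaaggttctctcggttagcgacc
PTGS1, outer start: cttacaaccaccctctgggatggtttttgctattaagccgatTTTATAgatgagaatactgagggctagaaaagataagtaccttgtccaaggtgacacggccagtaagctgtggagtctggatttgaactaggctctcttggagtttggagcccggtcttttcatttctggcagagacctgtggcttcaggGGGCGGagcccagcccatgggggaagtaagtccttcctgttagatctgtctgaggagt
PTGS1, inner start: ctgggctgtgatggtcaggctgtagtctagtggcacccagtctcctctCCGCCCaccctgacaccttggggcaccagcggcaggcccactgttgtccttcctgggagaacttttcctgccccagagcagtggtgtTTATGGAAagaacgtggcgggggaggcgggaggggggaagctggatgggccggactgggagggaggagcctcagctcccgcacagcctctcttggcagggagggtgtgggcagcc
The PTGS2 window held a TATA box, TATAAA, 32 to 27 bases before the start site and the letters TTACGCAA, a match to the C/EBP motif TTNNGNAA on both strands, 133 to 126 bases before it. The outer PTGS1 window held a GC box, GGGCGG, 58 to 53 bases before the start, and TATAAA on the opposite strand 208 to 203 bases before it. The inner PTGS1 window was richer in G and C, at 65.2% against 49.6% for the outer PTGS1 and 50.4% for the PTGS2 window, and held a C/EBP match and a GC box on the opposite strand. Among 35116 promoters of the same length, 10.7% held TATAAA on either strand, 33.2% the C/EBP letters and 42.6% the GC box. The E-box CACGTG (6.34% of promoters), the CRE TGACGTCA (1.65%), the AP-1 motif TGANTCA (6.57%) and the usual NF-kappaB consensus (9.96%) were searched on both strands too, and none of them was in these 3 windows. A match is a description of letters and no evidence that a factor binds. The lack of a match means only that these exact letters were absent. Variant sites that differ from the motifs were not searched, so such sites may lie in these windows.

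The authors' values are raw counts of reads over each whole gene, introns included, and library totals ran from 14897360 to 20306299. Ribosomal RNA rows took 86.2% to 92.5% of each total, which left 1513930 to 2048475 counts per library for all other genes. Normalized counts given here are counts scaled to the same effective library size (TMM), and levels per kb divide them by the length of the counted gene. Differences between groups came from edgeR's quasi-likelihood test, fitted once to all 8 libraries, and p-values were adjusted after Benjamini and Hochberg over the 12844 genes that passed a filter on low counts, with a call at an adjusted p below 0.05. The groups share 1 estimate of spread, but their replicates differed unequally. The mean chi-square per gene between replicates was 1.74 in control, 7.15 in shControl, 19.4 in shMETTL3 and 11.4 in shMETTL14 libraries. Fits of the 2 compared groups alone called 2312 genes higher and 2175 lower in senescence, instead of 1711 and 1702. With shMETTL3 they called 1261 and 1101, instead of 1574 and 1434. Of the 10 prostaglandin genes, 8 passed the filter. The targets of the shRNAs were checked first. METTL3 had 77 and 47 counts in shControl and 16 and 19 in shMETTL3 libraries, a log2 fold change of -2.04 ± 0.31 (SE, n = 2 per group, edgeR adjusted p = 1.8e-05). METTL14 had 24 and 28 counts in shControl and 18 and 14 in shMETTL14 libraries, a log2 fold change of -0.86 ± 0.34 that did not pass the test (edgeR adjusted p = 0.076). METTL14 was already called lower in shControl than in control libraries (-0.76 ± 0.28, edgeR adjusted p = 0.047), and with shMETTL14 it was called lower than in control (-1.62 ± 0.31, edgeR adjusted p = 0.00012) and than with shMETTL3 (-1.41 ± 0.32, edgeR adjusted p = 0.001). All 8 fibroblast markers passed the filter, with 7998 to 26090 summed counts per library, whereas 5 epithelial markers summed to 12 to 47 counts, 4 endothelial markers to 3 to 10 and 5 leukocyte markers to 23 to 64, most of these from CD68, with CD3E at 0 in every library. Several markers moved with the groups. Of the 8 fibroblast markers, all but VIM had fewer raw counts in both shControl than in both control libraries. Marker counts are given unscaled, and the scaling factors were 0.886 and 0.871 for the control and 1.18 and 1.11 for the shControl libraries. After scaling, FBN1 and VIM stood higher in shControl than in control libraries, and the other fibroblast markers stayed lower. COL1A1, a fibroblast collagen, had 9746 and 8732 counts in the control libraries, 2099 and 2960 in shControl, 3798 and 2972 in shMETTL3 and 1763 and 2046 in shMETTL14 libraries. The collagens COL1A2 and COL3A1 and the receptor PDGFRB had 7541 and 7377, 3073 and 3087, and 334 and 267 counts in the control and 1637 and 2303, 505 and 801, and 78 and 110 in the shControl libraries, and stood lowest with shMETTL14, at 700 and 1095, 178 and 300, and 38 and 54. THY1 had 376 and 346 counts in the control and 153 and 186 in the shControl libraries, and TWIST1 28 and 36 and then 8 and 15. VIM, the intermediate filament vimentin, had 3632 and 3628, 3732 and 3830, 3515 and 3356, and 4417 and 3988 counts in control, shControl, shMETTL3 and shMETTL14 libraries, and FBN1, the matrix protein fibrillin 1, had 1360 and 1420, 1099 and 1179, 1325 and 1564, and 775 and 844. MKI67, a marker of cycling cells, had 224 and 201, 25 and 53, 1 and 0, and 1 and 3 counts. CDKN1A, a cell cycle inhibitor, had 459 and 426, 726 and 744, 762 and 642, and 1817 and 1498 counts. The part of these markers in the results below was not tested.

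The levels of the prostaglandin genes spanned a wide range, and the order changed between groups. In control cells the highest level per kb was that of PTGS1 (8.18 ± 0.27 normalized counts per kb, SD, n = 2), followed by PTGES3 (6.08 ± 0.25), PTGER2 (3.52 ± 1.30) and PTGES2 (3.46 ± 1.72). Below them lay PTGS2 (1.88 ± 0.77), PTGES (0.804 ± 0.117), PTGER4 (0.734 ± 0.414) and PLA2G4A (0.143 ± 0.009), and HPGD and PTGIS had no count in either control library. The libraries of PTGER2 and PTGES2, of PTGES2 and PTGS2 and of PTGES and PTGER4 overlapped, so these neighbors in the order were not separated by their spread. In senescent shControl cells PTGS2 stood first at 193 ± 4.87 normalized counts per kb, far above PTGES3 (7.39 ± 1.03), PTGS1 (3.40 ± 0.76) and PTGES2 (2.74 ± 0.43), where PTGS1 and PTGES2 overlapped. PTGS2 stayed first in both knockdown groups. The order per kb refers to reads over whole genes, so a gene with long introns such as PLA2G4A, counted over 160 kb, is set against PTGS2, counted over 8.62 kb.

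**Figure D1:**
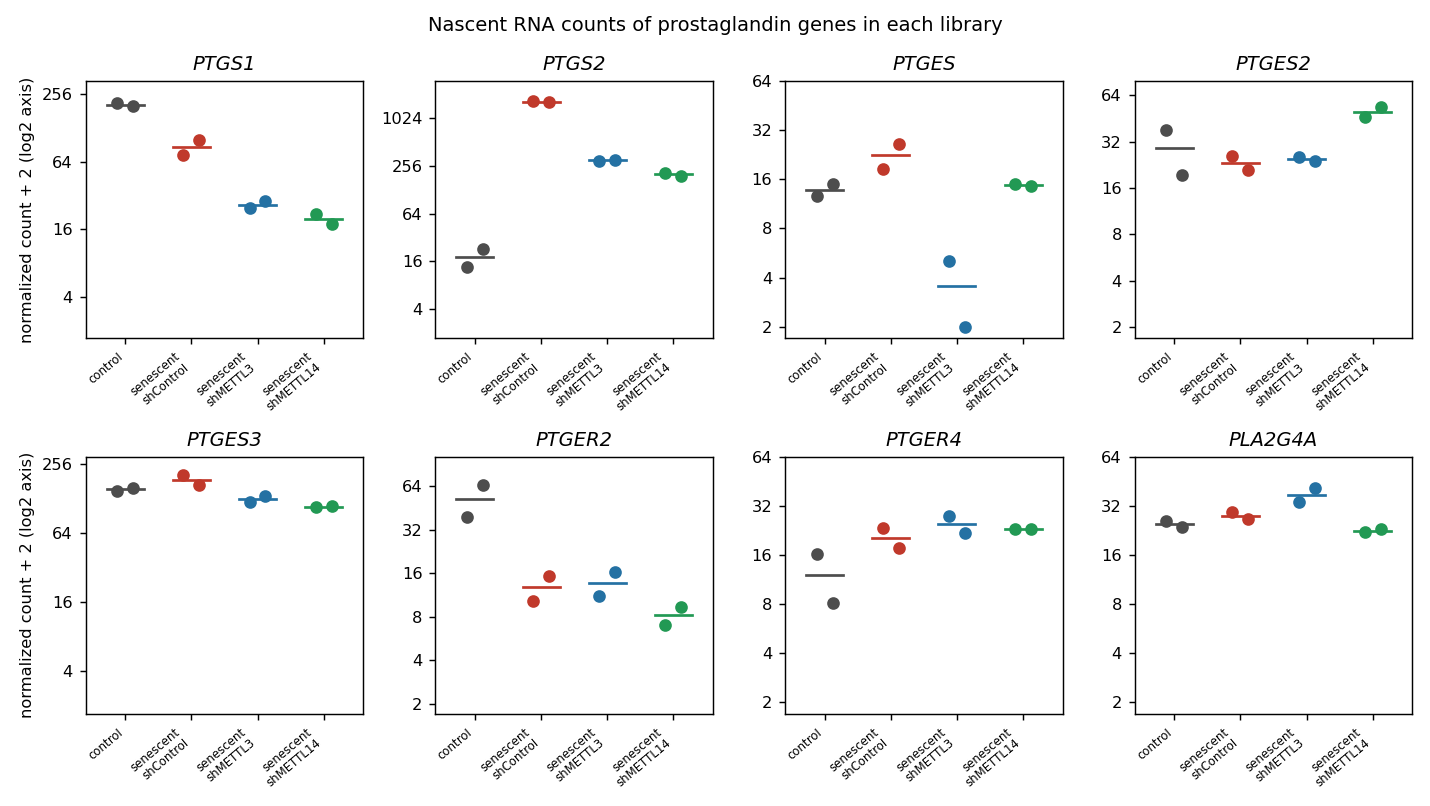
Normalized counts plus 2 (vertical log2 axis) of the 8 tested prostaglandin genes in each of the 8 libraries, 1 point per library with a bar at the group mean, and groups along the horizontal axis. PTGS2 goes from 13 and 24 raw counts in control to 1434 and 1470 with shControl, PTGS1 is highest in control, and PTGES drops to 3 and 0 raw counts with shMETTL3.

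PTGS2, the inducible cyclooxygenase (chr1:186640944-186649559, minus strand), had few counts in control cells and, in senescent cells, the highest level per kb of the 10 genes. It had 13 and 24 counts in the control libraries, 1434 and 1470 in shControl, 288 and 317 in shMETTL3 and 208 and 180 in shMETTL14 libraries. No 2 groups overlapped, and the knockdown libraries lay between the control and the shControl libraries. Mean normalized counts in the same order were 16.2 ± 6.64 (SD, n = 2), 1666 ± 41.9, 298 ± 3.89 and 199 ± 12.97. PTGS2 rose 102-fold in senescent shControl against control cells (log2 fold change 6.67 ± 0.20, SE; edgeR adjusted p = 1.3e-19). Within senescent cells it fell 5.58-fold with shMETTL3 (log2 fold change -2.48 ± 0.14, edgeR adjusted p = 1.3e-12) and 8.37-fold with shMETTL14 (log2 fold change -3.07 ± 0.15, edgeR adjusted p = 3.3e-14). What was left of the linear rise over control was 17.1% with shMETTL3 and 11.1% with shMETTL14. The direct test between the knockdowns gave a further log2 difference of -0.58 ± 0.15 for shMETTL14 (edgeR adjusted p = 0.0039). PTGS2 nevertheless stayed above control cells in both, by 18.2-fold with shMETTL3 (edgeR adjusted p = 1.3e-14) and 12.2-fold with shMETTL14 (edgeR adjusted p = 5.4e-13). At an adjusted p below 0.05 these calls and directions held under every other normalization, filter, tool and left-out library tried, but scaling by library totals alone reduced the log2 fold change with shMETTL3 to -1.86. In bulk libraries a change in the share of cells transcribing a gene and a change in each cell cannot be told apart.

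PTGS1, the constitutive cyclooxygenase (chr9:125132809-125157982, plus strand), moved the other way in senescence and in the same direction as PTGS2 after knockdown. Its counts were 238 and 231 in the control libraries, 61 and 89 in shControl, 22 and 28 in shMETTL3 and 20 and 15 in shMETTL14 libraries. Every control library was above every senescent library, and both shControl libraries were above all 4 knockdown libraries. Normalized counts averaged 206 ± 6.79 (SD, n = 2), 85.6 ± 19.0, 24.6 ± 2.84 and 17.9 ± 2.97 in the same order of groups. PTGS1 fell 2.40-fold in senescent shControl against control cells (log2 fold change -1.26 ± 0.19, edgeR adjusted p = 6.2e-06). It fell another 3.47-fold with shMETTL3 (log2 fold change -1.79 ± 0.25, edgeR adjusted p = 6.2e-06) and 4.76-fold with shMETTL14 (log2 fold change -2.25 ± 0.27, edgeR adjusted p = 5.6e-07). Scaling by library totals alone reduced the log2 fold change with shMETTL3 to -1.18 (edgeR adjusted p = 0.00045). The knockdowns differed by -0.46 ± 0.33, which did not pass the test (edgeR adjusted p = 0.29, 95% interval -1.10 to 0.19). Knockdown took PTGS2 back toward its control level and PTGS1 further away from it, to 8.32-fold below control cells with shMETTL3 and 11.4-fold below with shMETTL14.

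The balance of the 2 genes changed accordingly. Per kb, PTGS2 stood at 0.160 and 0.304 of PTGS1 in the control libraries, so PTGS1 was the more strongly transcribed cyclooxygenase gene there. In senescent shControl cells the ratio of PTGS2 to PTGS1 per kb was 68.7 and 48.3. With shMETTL3 it was 38.3 and 33.1, and with shMETTL14 30.4 and 35.1. The knockdown libraries lay below both shControl libraries but more than an order of magnitude above control. There both genes had fallen from shControl, with PTGS2 still above and PTGS1 further below its control level. These ratios are a description and were not tested.

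**Figure D2:**
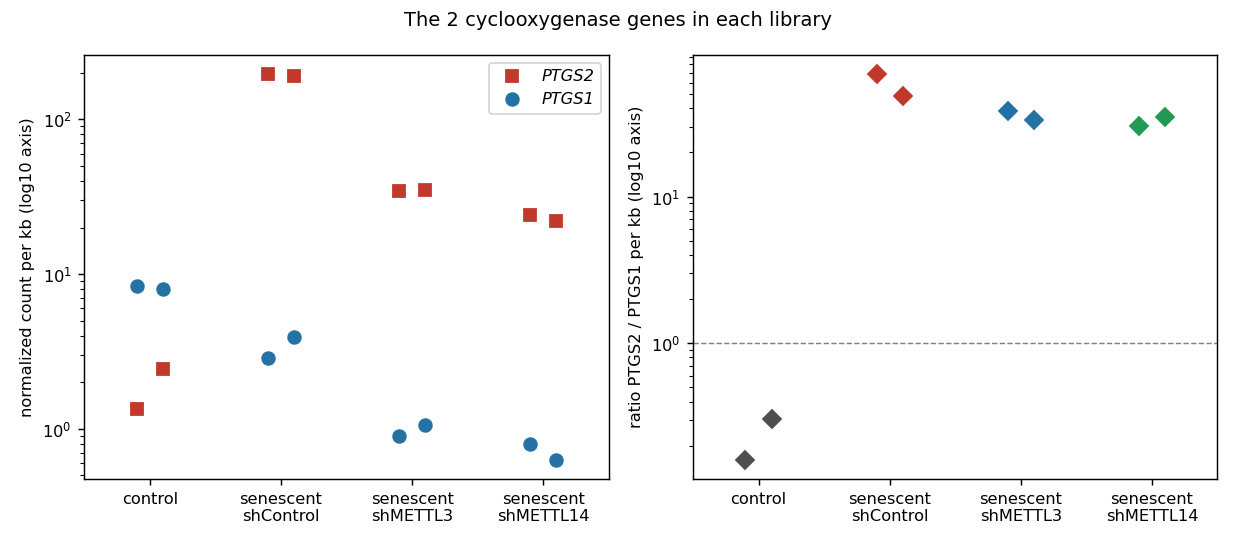
Left, normalized counts per kb of PTGS2 (squares) and PTGS1 (circles) on a log10 axis, and right, their ratio on a log10 axis, for each library of the 4 groups. PTGS1 lies above PTGS2 in both control libraries (ratios 0.160 and 0.304) and below it in all 6 senescent libraries (ratios 30.4 to 68.7).

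None of the 3 terminal synthases of prostaglandin E2 passed the test in senescence, and with shMETTL3 both PTGES and PTGES3 were called lower. PTGES, the inducible microsomal synthase that works together with PTGS2 (chr9:132500615-132515344, minus strand), had 12 and 15 counts in the control libraries, 14 and 22 in shControl, 3 and 0 in shMETTL3 and 13 and 12 in shMETTL14 libraries. Both shMETTL3 libraries were below all others, and the other 3 groups lay close together. The difference between senescent shControl and control cells was 0.79 ± 0.49 on the log2 scale and did not pass the test (edgeR adjusted p = 0.25). With shMETTL3, PTGES fell against shControl (edgeR adjusted p = 0.00047), and the pooled 36 against 3 counts gave a ratio of 13.95 with an exact 95% counting interval of 4.41 to 70.8. The call held with any library left out (edgeR adjusted p of 8.8e-05 to 0.02), but the fitted log2 fold change moved to -7.39 without shMETTL3 replicate 1 and to -2.71 without shMETTL3 replicate 2, so its size is uncertain. With shMETTL14 the log2 fold change was -0.68 ± 0.49 (edgeR adjusted p = 0.36). The direct test between the knockdowns passed (edgeR adjusted p = 0.0037), with 25 against 3 pooled counts, a ratio of 8.67 with a counting interval of 2.64 to 44.8, but without shMETTL3 replicate 2, the library with no count, it did not (edgeR adjusted p = 0.051). Counting intervals and the limit that a count of 0 allows, here 3 counts in a library, cover counting error only.

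PTGES2, a second membrane-associated synthase (chr9:130882972-130890741, minus strand), had 41 and 20 counts in the control libraries, 20 and 17 in shControl, 23 and 23 in shMETTL3 and 44 and 49 in shMETTL14 libraries. The shMETTL14 libraries were the highest, and the other groups overlapped one another. PTGES2 was called higher with shMETTL14 than with shControl (log2 fold change 1.16 ± 0.35, edgeR adjusted p = 0.017). This call rested on every library, since leaving out any of the 4 compared gave an edgeR adjusted p of 0.062 to 0.17, and DESeq2 gave an adjusted p of 0.091. With shMETTL3 the log2 fold change was 0.10 ± 0.39 (edgeR adjusted p = 0.89), and the knockdowns differed by 1.07 ± 0.34 (edgeR adjusted p = 0.014). That difference also missed the threshold in DESeq2 (adjusted p = 0.086) and without either shMETTL14 library.

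PTGES3, the cytosolic synthase that is also known as the HSP90 co-chaperone p23 (chr12:57057125-57082192, minus strand), varied less between groups than the cyclooxygenase genes. It had 167 and 180 counts in the control libraries, 172 and 150 in shControl, 114 and 141 in shMETTL3 and 106 and 103 in shMETTL14 libraries. The knockdown libraries were below both shControl libraries in normalized counts. Its log2 fold change was 0.28 ± 0.16 in senescent shControl against control cells (edgeR adjusted p = 0.21). It was called lower with shMETTL3 (-0.56 ± 0.17, edgeR adjusted p = 0.015) and with shMETTL14 (-0.79 ± 0.17, edgeR adjusted p = 0.0013). Both calls were lost without shControl replicate 1. With 1 library left out in turn the log2 fold change ranged from -0.71 to -0.42 with shMETTL3 and from -0.93 to -0.64 with shMETTL14. DESeq2 lost the call with shMETTL3, and scaling by library totals alone lost both calls. With that scaling the log2 fold change with shMETTL3 turned to 0.06, and the median of all genes in this comparison moved from -0.03 to 0.58. PTGIS, the prostacyclin synthase (chr20:48120411-48184707, minus strand), had a single count in 1 shControl and in 1 shMETTL3 library and none in the others, so its transcription was not detectable at this depth.

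The receptors PTGER2 (chr14:52781016-52795322, plus strand) and PTGER4 (chr5:40680032-40693837, plus strand) encode EP2 and EP4, which both raise cyclic AMP when prostaglandin E2 binds. PTGER2 had 42 and 73 counts in the control libraries, 7 and 12 in shControl, 9 and 15 in shMETTL3 and 5 and 7 in shMETTL14 libraries. The control libraries stood above all 6 senescent libraries, and the shControl and shMETTL3 libraries overlapped. PTGER2 fell 4.59-fold in senescent shControl against control cells (log2 fold change -2.20 ± 0.41, edgeR adjusted p = 0.00014). Its log2 fold change against shControl was 0.12 ± 0.51 with shMETTL3 (edgeR adjusted p = 0.9, 95% interval -0.89 to 1.12) and -0.81 ± 0.59 with shMETTL14 (edgeR adjusted p = 0.36, 95% interval -1.96 to 0.34), and each interval reached past 1 on the log2 scale in one direction, so that a change of that size could be missed at this depth. It remained below control cells with shMETTL3 (-2.08 ± 0.39, edgeR adjusted p = 9.1e-05) and shMETTL14 (-3.01 ± 0.44, edgeR adjusted p = 3.7e-06).

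PTGER4 had 16 and 7 counts in the control libraries, 18 and 14 in shControl, 25 and 21 in shMETTL3 and 21 and 20 in shMETTL14 libraries. Its normalized counts were lowest in the control libraries, and the 3 senescent groups overlapped. None of the first 3 comparisons passed the test, with log2 fold changes of 0.85 ± 0.46 in senescence (edgeR adjusted p = 0.18), 0.31 ± 0.41 with shMETTL3 (edgeR adjusted p = 0.64) and 0.19 ± 0.42 with shMETTL14 (edgeR adjusted p = 0.8). Against control cells the call with shMETTL3 (1.16 ± 0.44, edgeR adjusted p = 0.035) was lost in DESeq2 (adjusted p = 0.12) and without control replicate 2 (edgeR adjusted p = 0.33). In GENCODE v44 on hg19 the whole of PTGER4 lies inside the longest model of TTC33 on the opposite strand. TTC33 itself, counted over a span that does not reach PTGER4, had 21 to 56 counts per library and passed no comparison. The file names a strand option, but whether the counts kept the strands apart was not settled here, so PTGER4 may share reads with TTC33 transcripts, which was not tested.

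PLA2G4A, the cytosolic phospholipase A2 that releases arachidonic acid (chr1:186798032-186958113, plus strand), lies 148 kb from PTGS2. It had 27 and 25 counts in the control libraries, 23 and 22 in shControl, 31 and 41 in shMETTL3 and 20 and 20 in shMETTL14 libraries. Its counts were highest in the shMETTL3 libraries. The log2 fold changes were 0.18 ± 0.34 in senescence (edgeR adjusted p = 0.76), 0.46 ± 0.32 with shMETTL3 (edgeR adjusted p = 0.34) and -0.33 ± 0.35 with shMETTL14 (edgeR adjusted p = 0.56). Between the knockdowns, whose libraries did not overlap, it was -0.79 ± 0.33 for shMETTL14 against shMETTL3 and missed the threshold (edgeR adjusted p = 0.064). It passed under scaling by library totals alone (edgeR adjusted p = 0.013), with at least 10 counts in every library (0.047) and without shMETTL3 replicate 1 (0.038). With about 20 to 41 counts per library over 160 kb, the 95% interval in senescence, -0.49 to 0.84, leaves moderate changes undetected. HPGD, the dehydrogenase that inactivates prostaglandin E2 (chr4:175411328-175444049, minus strand), had 1 count in a single shControl library and 0 in the other 7, so neither its presence nor a difference was detectable at this depth.

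Around the cyclooxygenase genes few other genes passed the filter on low counts. PLA2G4A was the nearest tested gene to PTGS2 on one side, and no tested gene lay within 200 kb on the other. PACERR, a noncoding RNA that starts 227 bases from the PTGS2 span and reads away from it, had no count in control cells and at most 3 in any senescent library, too few to test. LINC01036, 104 kb beyond PLA2G4A, had 1 and 2 counts in the control libraries, 3 and 2 in shControl, 0 and 9 in shMETTL3 and 21 and 20 in shMETTL14 libraries. It was called higher with shMETTL14 than with shControl (log2 fold change 2.82 ± 0.75, edgeR adjusted p = 0.0074), while PTGS2 fell there. LINC01036 passed the filter through the shMETTL14 libraries, where it was high, so its call is no independent result. Next to PTGS1, the nearest tested gene was MRRF, a mitochondrial ribosome recycling factor 45.2 kb away, which had 36 to 60 counts per library and passed no comparison.

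Counted together, the tested prostaglandin genes were called 1 higher (PTGS2) and 2 lower (PTGS1, PTGER2) of 8 in senescent shControl against control cells, where 13.3% of all tested genes were called higher and 13.3% lower. With shMETTL3 against shControl 0 were called higher and 4 lower (PTGS1, PTGS2, PTGES and PTGES3), beside 12.3% higher and 11.2% lower among all genes. With shMETTL14 against shControl 1 was higher (PTGES2) and 3 lower (PTGS1, PTGS2 and PTGES3), beside 9.15% and 12%. Between the knockdowns 2 were higher with shMETTL14 (PTGES, PTGES2) and 1 lower (PTGS2), beside 16.5% and 18.7%. Against control cells 2 were higher and 3 lower with shMETTL3, beside 20.1% and 20.1%, and 2 were higher and 3 lower with shMETTL14, beside 19.7% and 20.5%. The median log2 fold change of the 8 genes was 0.23 in senescence, -0.23 with shMETTL3 and -0.73 with shMETTL14, beside medians of -0.03, -0.03 and 0.00 over all genes tested. The genes were few and were chosen with results known, the 2 knockdown comparisons share the shControl libraries, and these counts are descriptions.

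**Figure D3:**
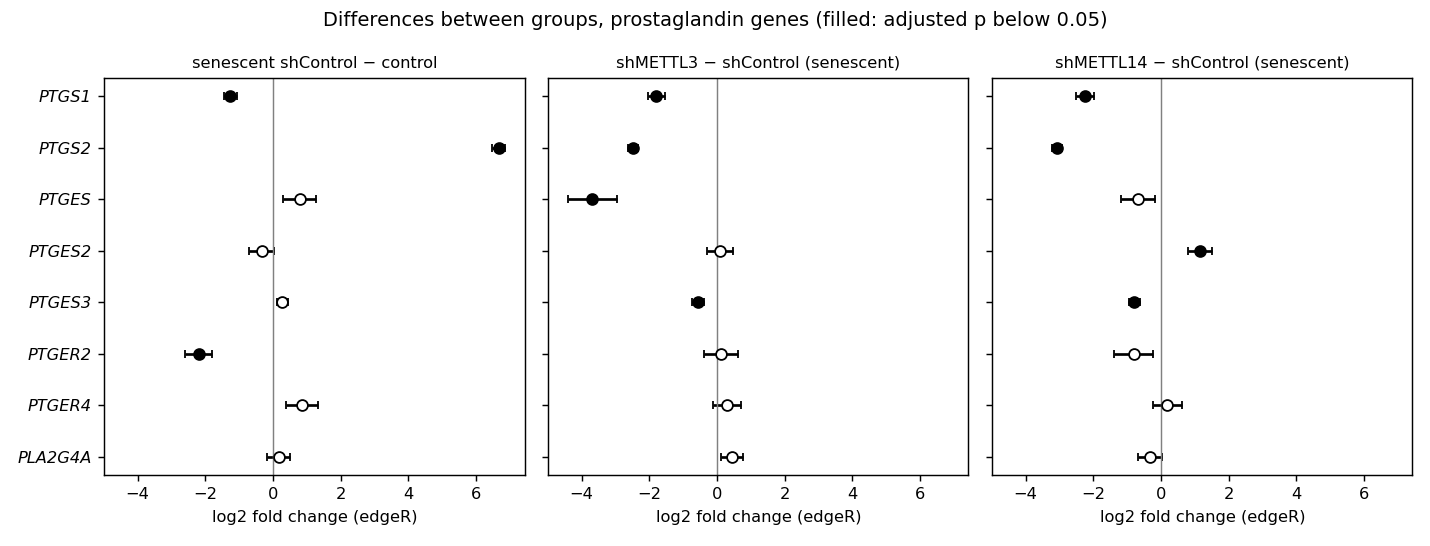
Log2 fold changes from edgeR (horizontal axis, the same in each panel) of the 8 tested prostaglandin genes in 3 comparisons, with bars of 1 SE and filled points where the adjusted p was below 0.05. PTGS2 lies at 6.67 in senescence and at -2.48 and -3.07 with the knockdowns, and PTGS1 lies below 0 in all 3.

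The genes whose profile over the 8 libraries was most like that of PTGS2, by the root mean square difference of centered log2 normalized counts among 3883 genes whose mean was 100 counts or more, were CXCL1 (0.44), CXCL8 (0.53) and SLC16A6 (0.79). CXCL1 and CXCL8 are neutrophil-attracting chemokines, and SLC16A6 is a monocarboxylate transporter family member. CXCL1 had 11 and 9 counts in the control libraries, 844 and 746 in shControl, 119 and 91 in shMETTL3 and 131 and 102 in shMETTL14 libraries. CXCL8 had 38 and 41 counts in the control libraries, 4396 and 4004 in shControl, 632 and 905 in shMETTL3 and 1104 and 911 in shMETTL14 libraries. SLC16A6 had 29 and 40, 788 and 718, 589 and 607, and 282 and 334 counts in the same order, so that with shMETTL3 its counts lay nearer to shControl than those of PTGS2 did. The genes most like PTGS1 were LPAR1, a receptor for lysophosphatidic acid (0.21), GAS6, a ligand of the TAM receptors (0.31), and PDZRN3, a ubiquitin ligase (0.32). LPAR1 had 3167 and 3442 counts in the control libraries, 721 and 939 in shControl, 236 and 313 in shMETTL3 and 207 and 205 in shMETTL14 libraries. The distances describe likeness over these 8 libraries only.

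The wider eicosanoid pathway was followed in 6 lists of 69 other genes, of which 29 passed the filter on low counts. In senescent shControl against control cells 4 of the 29 were called higher and 6 lower, beside 13.3% of all tested genes in each direction. The highest rise was that of AKR1B1, an aldo-keto reductase that can make prostaglandin F2alpha, with 406 and 424 counts in the control and 906 and 911 in the shControl libraries (log2 fold change 1.52 ± 0.14, edgeR adjusted p = 4.5e-09). CBR1, a carbonyl reductase that converts prostaglandin E2 to F2alpha, rose by 0.89 ± 0.32 and LTA4H, which makes leukotriene B4, by 0.67 ± 0.24 on the log2 scale. Those called lower, with a mean count of 20 or more, were CYP1B1, a cytochrome P450 (-0.99 ± 0.29), ABCC4, which exports prostaglandins (-0.77 ± 0.15), and MGST1, a microsomal glutathione transferase (-0.55 ± 0.16). The others called were the acyl-CoA synthetase ACSL4, higher (0.65 ± 0.14), and, at lower counts, ALOX12 (-2.01 ± 0.56), AKR1C1 (-1.40 ± 0.43) and PTGDS, all lower. They were named after their values were seen. PTGDS, the lipocalin-type prostaglandin D synthase, had 13 and 15 counts in control cells and at most 4 in any senescent library (edgeR adjusted p = 0.041). It passed the filter only through the control libraries, where it was high, so its call is no independent result.

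With shMETTL3 against shControl 2 of the 29 were called higher and 6 lower, beside 12.3% and 11.2% of all tested genes. Of the 6, 4 belonged to the list of other prostanoid synthases, in which 7 genes were tested. These were FAM213B, a prostaglandin F synthase with 29 and 23 counts in shControl and 11 and 4 in shMETTL3 libraries (-1.99 ± 0.46), CBR1 (-1.12 ± 0.34), AKR1B1 (-0.66 ± 0.14) and MGST1 (-0.65 ± 0.18). As MGST1 is a microsomal glutathione transferase, the list is wider than prostanoid synthases in the strict sense. CYP1B1 (-2.30 ± 0.42) and ANXA1, annexin A1, an inhibitor of phospholipase A2 (-0.98 ± 0.15), were lower as well. MGST2, which can conjugate leukotriene A4 with glutathione (1.08 ± 0.32), and the acyl-CoA synthetase ACSL3 (0.55 ± 0.14) were higher. The median log2 fold change of the 7 other prostanoid synthases was -0.66, beside -0.03 over all genes tested. The calls of the pathway lists were not followed under other settings. Scaling by library totals alone moved the median of all genes from -0.03 to 0.58 in this comparison. That shift is about as large as the falls of AKR1B1 and MGST1, so these depend on the scaling.

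With shMETTL14 against shControl 2 of the 29 were called higher and 4 lower, beside 9.15% and 12% of all tested genes. Of the 7 other prostanoid synthases 1 was called, TBXAS1, the thromboxane synthase. It had 201 and 215 counts in shControl and 52 and 126 in shMETTL14 libraries (-1.38 ± 0.23, edgeR adjusted p = 5.5e-05). ACSL4, which activates arachidonic acid to its CoA ester, had 1307 and 1264 counts in shControl and 459 and 559 in shMETTL14 libraries (-1.50 ± 0.15, edgeR adjusted p = 2.6e-08). ABCC4 was called lower (-1.30 ± 0.16), and PTGFR, the receptor for prostaglandin F2alpha and the single tested gene of the list of other prostanoid receptors, was called lower with 27 and 20 counts against 12 and 9 (-1.32 ± 0.46, edgeR adjusted p = 0.04). MGLL, the monoacylglycerol lipase (0.45 ± 0.15), and ANXA1 (0.41 ± 0.14) were higher. In the lists of prostaglandin transport and breakdown, of the lipoxygenase and leukotriene branch and of the cytochrome P450 branch, 4, 5 and 3 genes were tested, and of these 1, 0 and 0 were called with shMETTL14 and 0, 1 and 1 with shMETTL3.

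**Figure D4:**
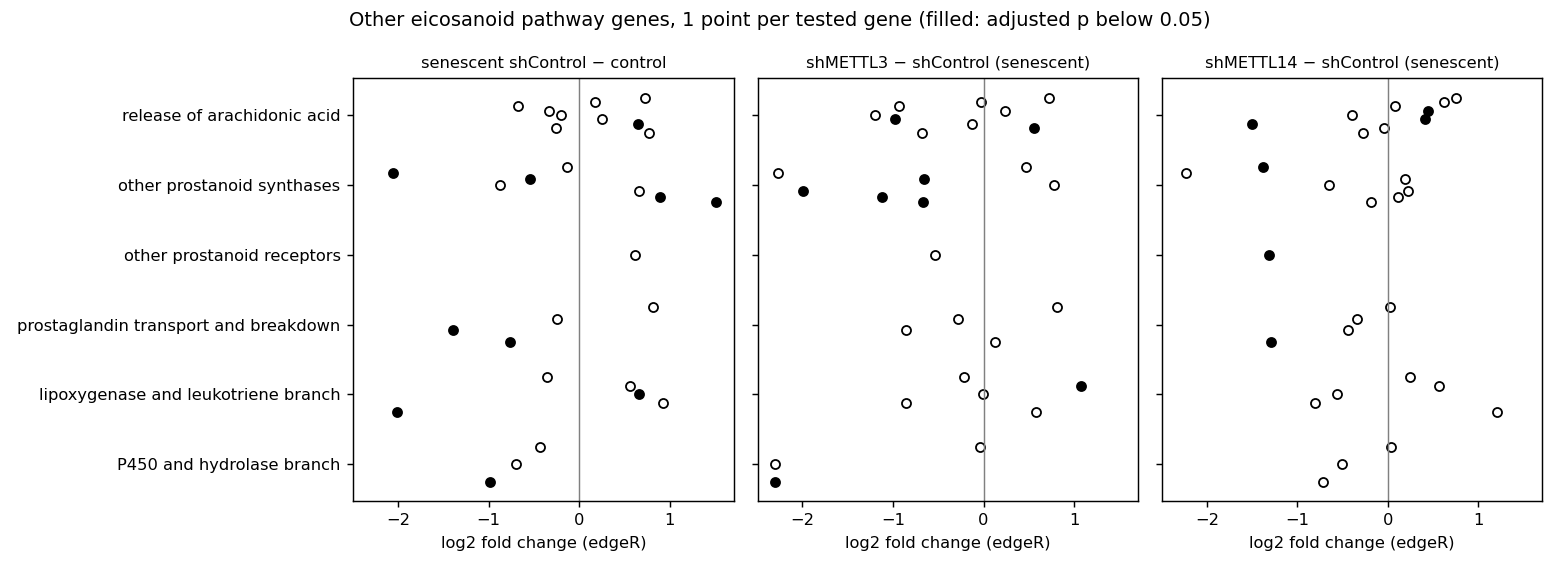
Log2 fold changes from edgeR (horizontal axis, the same in each panel) of the 29 tested genes of 6 eicosanoid pathway lists, 1 point per gene with the lists on the vertical axis, filled where the adjusted p was below 0.05. In the list of other prostanoid synthases, 4 of 7 points are filled on the lower side with shMETTL3 and 1 with shMETTL14.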

How the data were processed

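fastGRO-seq was performed on IMR90 ER:RAS cells, with 4 groups and 2 libraries in each. The authors aligned the reads to hg19 (STAR and deepTools 3.3 are named in the submitters' processing notes), and the deposited values are raw counts over whole gene bodies from HOMER, not normalized, with 1 column per replicate. The length of each counted gene, in bases, was also deposited. For each comparison a contrast was taken from 1 quasi-likelihood fit of all 8 libraries in edgeR 4.0.16 (R 4.3.3), after TMM scaling and filterByExpr (minimum count 10). SE was the absolute log2 fold change divided by the square root of F, and 95% intervals were computed from the SE. DESeq2 1.42.0 and the other alternatives of the closing section were recomputed over the whole table. The procedure was tested on simulated data. Plots used matplotlib 3.10.9.

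The genes and pathway lists were chosen with earlier results of these data known. Beside the 10 genes, the text names the shRNA targets, in each of the first 3 comparisons the 3 largest called rises and falls of the pathway lists with a mean of at least 20 counts, overlapping and neighboring genes within 200 kb, and the 3 genes most alike for PTGS1 and PTGS2. AKR1B1, MGST1 and ANXA1 where called with shMETTL3, ACSL4, ALOX12 and AKR1C1 where called in senescence, and PTGDS, PTGFR and GSTM2 were added after their values were seen. The study added Drosophila nuclei as a spike-in, which was left out here, and differences are therefore relative to the other genes of a library. The libraries were not labeled by batch.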

Additional observations from a re-analysis of the deposited data

Results flagged for a closer look

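Several genes differed between the knockdowns of METTL3 and METTL14 by the direct edgeR test of shMETTL14 against shMETTL3 in senescent cells, given here as log2 differences, where a positive value is higher with shMETTL14. Among the prostaglandin genes these were PTGS2 (-0.58, edgeR adjusted p = 0.0039), PTGES (3.01, edgeR adjusted p = 0.0037) and PTGES2 (1.07, edgeR adjusted p = 0.014). The log2 difference of PTGES ranged from 2.03 to 6.70 with 1 library left out in turn. The calls of PTGES and PTGES2 did not hold with every library left out, and PTGES2 also missed the threshold in DESeq2 (adjusted p = 0.086). Of the 29 tested pathway genes 6 were called higher and 5 lower, beside 16.5% and 18.7% of all tested genes. Those higher with shMETTL14 were AKR1B1 (0.47), CBR1 (1.23), CYP1B1 (1.58), MGST1 (0.85), FAM213B (2.21) and ANXA1 (1.39). Those lower were ABCC4 (-1.42), ACSL3 (-0.59), ACSL4 (-1.37), TBXAS1 (-1.84) and GSTM2 (-1.43), a glutathione transferase with a mean of 13 counts that was added after its values were seen. ANXA1 was called in opposite directions by the knockdowns, each set against the same shControl libraries.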

How the results depend on the processing

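Of 796 log2 fold changes of the 8 tested prostaglandin genes recomputed under other settings, 744 kept their direction and their side of the threshold, 31 lost a call, 8 gained one and 13 changed sign. None of the sign changes fell on PTGS1 or PTGS2. Scaling by library totals alone moved the median of all genes to -0.53, 0.58, 0.35 and -0.25 in the first 4 comparisons, from -0.03, -0.03, 0.00 and 0.01. This scaling turned PTGES3 to -0.22 and PLA2G4A to -0.32 in senescence, PTGES3 to 0.065 with shMETTL3, PLA2G4A to 0.021 with shMETTL14 and PTGES to -0.031 for shMETTL14 against control. It gave 1 gene called higher with shMETTL3 against shControl (PLA2G4A) instead of 0 and 3 lower instead of 4, 2 lower instead of 3 with shMETTL14 against shControl, 1 higher and 2 lower instead of 2 and 1 between the knockdowns, and 1 higher instead of 2 for shMETTL14 against control. It also moved the split of all calls to 752 higher and 5015 lower in senescence, to 5287 and 353 with shMETTL3 and to 3163 and 709 with shMETTL14. With shMETTL3 it moved PTGS2 from -2.48 to -1.86 and PTGS1 from -1.79 to -1.18. The cause of these changes was not tested.

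A minimum of 10 counts in every library, which removes genes that are low in 1 group, gave 1 lower in senescence instead of 2, 3 lower with shMETTL3 against shControl instead of 4, 2 lower for shMETTL14 against control instead of 3, 1 higher and 2 lower between the knockdowns, and 1 higher and 1 lower for shMETTL3 against control instead of 2 and 3. Upper quartile scaling and a fit of the 2 groups alone gave 1 higher for shMETTL3 against control instead of 2, and the fit of the 2 groups alone gave 3 higher instead of 2 for shMETTL14 against control, adding PTGER4 (edgeR adjusted p = 0.041). DESeq2 and an adjusted p below 0.01 gave 0 higher instead of 1 with shMETTL14 against shControl and 1 instead of 2 in the comparison of the knockdowns and in both comparisons of a knockdown with control. Both gave 3 lower instead of 4 with shMETTL3 against shControl and 2 instead of 3 for shMETTL14 against control. Requiring a log2 fold change of at least 1 gave 3 lower instead of 4 with shMETTL3 and 2 instead of 3 with shMETTL14 against shControl, 2 instead of 3 for shMETTL14 against control, 0 lower instead of 1 between the knockdowns and 1 higher instead of 2 for shMETTL14 against control.

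With 1 library left out in turn, the number called was 3 to 4 lower with shMETTL3 and 2 to 3 lower with shMETTL14 against shControl, 2 to 3 lower for each knockdown against control, 0 to 1 higher with shMETTL14 against shControl, 1 to 2 higher and 1 to 2 lower between the knockdowns, 1 to 2 higher for shMETTL3 against control and 1 to 3 higher for shMETTL14 against control. The log2 fold changes that changed sign in this way, none of them called, ranged from -0.76 to 0.29 for PTGES2 in senescence, -0.071 to 0.25 for PTGES2 and -0.25 to 0.49 for PTGER2 with shMETTL3, -0.022 to 0.43 for PTGER4 with shMETTL14, -0.27 to 0.090 for PTGER4 between the knockdowns, -0.68 to 0.37 for PTGES2 with shMETTL3 against control and -0.026 to 0.27 for PTGES with shMETTL14 against control.

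Deviations of libraries with the same replicate number correlated over genes at -0.04 to 0.10 across the 6 pairs of groups. Such low values give no sign that the numbers pair the libraries. They cannot exclude a pairing, since many genes had low counts, and the labels do not say. A fit with the replicate number as a block changed no call, with 1 gene higher and 2 lower in senescence, 0 and 4 with shMETTL3 and 1 and 3 with shMETTL14. At this depth PTGIS and HPGD could not be tested, and for genes near 20 counts per library, such as PTGER4 and PLA2G4A, the intervals are wide.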
